A study of Mus musculus with 20 samples.

Results

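Myc and 38 nucleolar genes of ribosome biogenesis were followed through the abdominal aortas of 20 mice, 39 genes of the 43422 whose levels were available. Myc was chosen by its measured response, since its p-value was the smallest of all genes fitted between Plod1-/- mice with and without Ang II. The 38 others were chosen as textbook genes of nucleolar ribosome production to see whether they moved with it. They too were chosen with earlier results of these data known. The series compared mice with and without LH1, the lysyl hydroxylase that Plod1 encodes and that modifies collagen, under infusion of saline or of angiotensin II (Ang II), a peptide hormone used to provoke aortic aneurysm. The 4 groups held 5 mice each and were WT given saline, WT given Ang II, Plod1-/- given saline and Plod1-/- given Ang II. All were labelled C57BL/6, for which the study's methods give C57Bl/6NCrl, and 6 months old, although the study's methods give a younger age and state that only males were used. Ang II was infused at 1000 ng/kg per minute and the tissue was taken on day 14. The Plod1 knockout was constitutive and not limited to a cell type. RNA came from whole aortic tissue, so fewer cells of a type and less RNA per cell cannot be told apart. Levels are FPKM, fragment counts scaled to transcript length and library size.

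Ribosomes are built in the nucleolus. RNA polymerase I transcribes the ribosomal RNA (rRNA) precursor, small nucleolar ribonucleoproteins (snoRNPs) direct its chemical modification, and large sets of assembly factors fold and cut it into the small and the large ribosomal subunit. Myc, a transcription factor that binds E-box sequences together with its partner Max, is known as an activator of these genes in growing cells. In the healthy arterial wall smooth muscle cells divide rarely, and Myc is known as a gene that injured or growing vascular cells switch on.

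Some facts about the libraries bear on the values. Plod1 was at 22.8 to 29.7 FPKM in the WT mice and 0.0415 FPKM at most without the gene. Xist, an RNA of female cells, reached 15.1 FPKM in replicate 5 of the saline-treated Plod1-/- mice and 7.93 FPKM in replicate 1 of the Ang II-treated ones, whereas the other 18 libraries had 0.0328 FPKM at most. Results are therefore also given without both libraries. Mitochondrial genes took 8.37% to 29.1% of the FPKM sum, the most in Ang II-treated WT mice. All 8 smooth muscle marker genes were expressed in every group.

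Myc (ENSMUSG00000022346, chromosome 15 of GRCm38, 61985391 to 61990374) was highest in the Ang II-treated Plod1-/- mice, whose FPKM values were 20.1, 27.2, 22.3, 27.7 and 26. Saline-treated Plod1-/- mice had 2.67, 2.81, 2.05, 2.68 and 2.44 FPKM. These groups did not overlap, and saline-treated Plod1-/- mice also lay below every saline-treated WT mouse. In saline-treated WT mice Myc was at 30.4, 7.99, 5.32, 6.76 and 4.65 FPKM, and in Ang II-treated WT mice at 10.1, 2.72, 2.97, 3.01 and 3.47 FPKM. Replicate 1 stood far above the 4 other mice in both WT groups, and the WT groups overlapped. Between the Plod1-/- groups the log2 fold change was 2.86 ± 0.11 (SE), a 7.24-fold higher level under Ang II. That contrast chose Myc, so the value is a description without a test. The next genes in the order of p-values there were Col4a4, a chain of basement membrane collagen, at a log2 fold change of -1.60 and Tnfaip6, a secreted hyaluronan-binding protein, at 3.01.

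**Figure D1:**
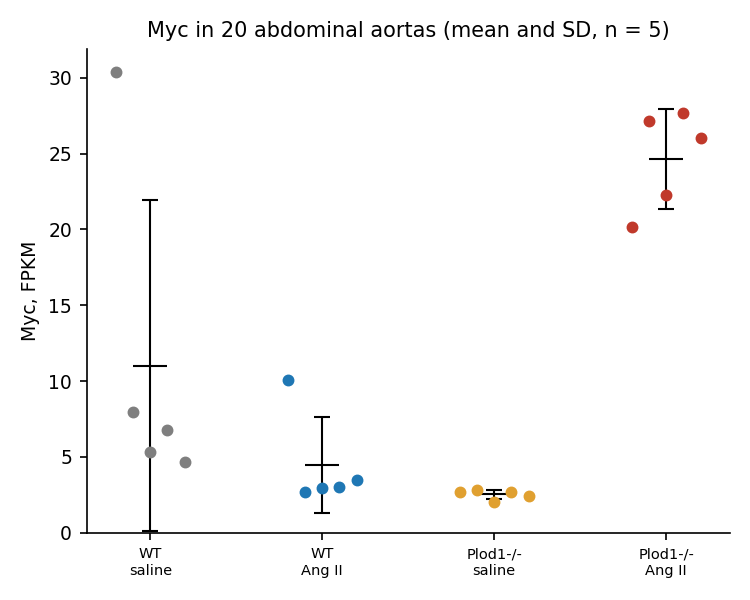
FPKM of Myc (vertical axis) in each of the 20 mice by group (horizontal axis), with points for mice in order of replicate number and bars for the mean and SD of 5 mice. The Ang II-treated Plod1-/- mice sit between 20.1 and 27.7 FPKM, and only replicate 1 of the saline-treated WT mice, at 30.4 FPKM, is as high.

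The response of WT mice used none of the mice that chose Myc. In WT mice Ang II left Myc with a log2 fold change of -0.95 ± 0.45 (SE), which did not pass the test (limma, Benjamini-Hochberg adjusted p = 0.112). Without saline-treated WT replicate 1 the value was -0.52, and without Ang II-treated WT replicate 1 it was -1.24. The size of the WT value thus depended on replicate 1 of each group, and so did the call, since Myc was lower at an adjusted p of 0.0428 (limma) without Ang II-treated WT replicate 1. Myc was also called lower, at an adjusted p of 0.0394 (limma), when all 4 groups were fitted together, which takes the spread in part from the mice that chose it. Over 19 alternative settings the adjusted p of Myc in WT mice ran from 0.0106 to 0.245. The other comparisons of Myc share mice with the contrast that chose it and are given as values only. Ang II-treated Plod1-/- mice were at a log2 fold change of 2.37 ± 0.28 (SE) against Ang II-treated WT mice, without overlap. Saline-treated Plod1-/- mice were at -1.43 ± 0.39 (SE) against saline-treated WT mice.

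Many of the nucleolar genes were lower under Ang II in WT mice and higher in Plod1-/- than in WT mice under Ang II. All 38 passed the filter on low values in every comparison, 1 FPKM or more in 5 or more of the mice compared. In WT mice, 21 of the 38 nucleolar genes were lower under Ang II at an adjusted p below 0.05 (limma) and 0 were higher, against 21.5% lower and 16.5% higher among all 11994 genes tested. At an unadjusted p below 0.05 the counts over all 39 were 24 lower and 0 higher, against 30.6% lower and 19.8% higher among all genes. The WT calls of Ddx18 and Noc3l were each lost under 12 of 19 alternative settings of the analysis, those of Wdr75 and Npm1 under 9, that of Nip7 under 8, that of Ltv1 under 7 and that of Tsr1 under 4, while the other 14 were lost under 1 or 2. The median log2 fold change of all 39 genes was -0.40, against -0.14 over all genes tested. In 10 of them the groups did not overlap, each time with the Ang II-treated mice lower, against 17.3% of all genes in either direction. None of the 39 also had a log2 fold change above 1 in size, a threshold that 8.66% of all genes passed together with the adjusted p. Each of the 5 nucleolar roles held at least 2 genes that were lower.

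The same question was then asked between the genotypes under Ang II. These 10 mice include the Ang II-treated Plod1-/- mice that chose Myc, and the Ang II-treated WT mice of the comparison above. Of the 38 nucleolar genes, 28 were higher in Plod1-/- mice and 0 lower, against 20.8% higher and 10.4% lower among 12356 genes tested. At an unadjusted p below 0.05, 32 of the 39 were higher and 0 lower, against 28.3% higher and 15.2% lower among all genes. The call of Nob1 was lost under 14 of 20 alternatives, that of Mybbp1a under 9, Noc3l under 8, Bop1 under 7, Pes1 under 6, and Utp20 and Wdr12 under 5 each. Without both libraries with Xist RNA the count was 30 of the 39 genes with Myc included, against 29 with all mice. All 39 had a positive log2 fold change, although Ubtf and Rrp9, which did not pass, turned negative under some alternatives, among them quantile normalization, at -0.03 and -0.01, and for Rrp9 the removal of Ang II-treated Plod1-/- replicate 1, at -0.03. The median was 0.53, against 0.12 over all genes. For 25 of the 39 there was no overlap, against 15.1% of all genes, and all 25 were higher in the Plod1-/- mice. Of the 38 nucleolar genes, 3 also passed the threshold of 1 on the log2 scale, Npm1, Nop58 and Ddx21, against 11.1% of all genes. Counts over all 39 genes, here and in the comparisons below, include Myc. Its entry in them is a description and no test, since they share mice with the contrast that chose it. The 10 nucleolar genes that did not pass the adjusted p were Polr1c, Rrn3, Ubtf, Nat10, Rrp9, Nop14, Tsr1, Bysl, Rrs1 and Ddx18. After quantile normalization, which moved the median of all genes from 0.12 to -0.03, the median of the 39 genes was 0.40 and lay 0.43 above that of all genes, close to the 0.41 before.

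**Figure D2:**
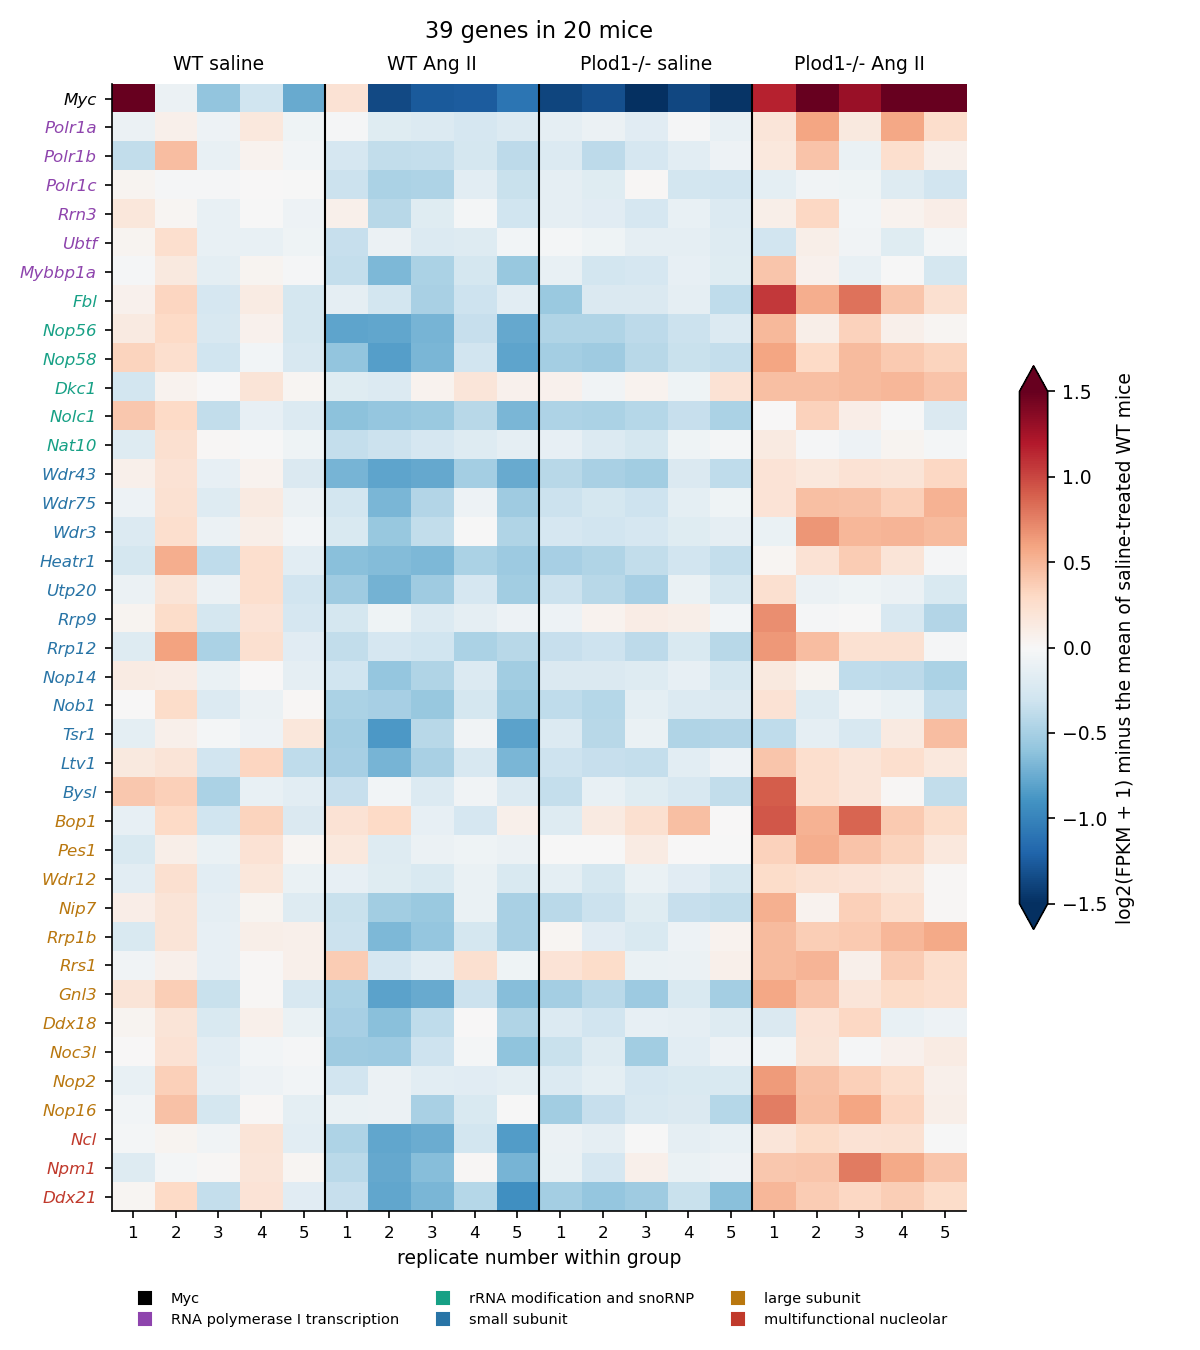
Level of the 39 genes (rows, coloured by role) in the 20 mice (columns, replicates 1 to 5 of each group), as log2(FPKM + 1) minus the mean of the 5 saline-treated WT mice, with red for higher and blue for lower. The Ang II-treated WT mice are mostly blue, and 26 to 32 of the 38 nucleolar genes lie above the saline-treated WT median in each Ang II-treated Plod1-/- mouse.

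The same genes were also counted mouse by mouse. The number of the 38 nucleolar genes above the median of saline-treated WT mice was 32, 32, 28, 31 and 26 in the Ang II-treated Plod1-/- mice. It was 5, 2, 1, 6 and 4 in Ang II-treated WT mice and 3, 5, 7, 3 and 4 in saline-treated Plod1-/- mice. In the saline-treated WT mice it was 12, 36, 1, 22 and 5. By count, saline-treated WT mice thus covered nearly the whole range, with replicate 2 highest, while the 3 other groups were narrow. A group mostly below the median has low counts whatever its spread. The median log2 ratio of the 38 genes to the saline-treated WT median keeps the spread. It ran from -0.14 to 0.24 in the WT group given saline and from -0.50 to -0.18 in the WT group given Ang II. The Plod1-/- groups ran from -0.24 to -0.13 under saline and from 0.13 to 0.33 under Ang II. The WT group given Ang II was thus narrow by count only. Replicate 2 was not the mouse with the high Myc, which was replicate 1.

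Between the saline-treated genotypes, which share mice with the comparisons above, few genes passed the adjusted test. Among the 38 nucleolar genes, 2 were lower in Plod1-/- mice and 0 higher, against 3.23% lower and 3.33% higher among 11999 genes tested. At an unadjusted p below 0.05, 22 of the 39 were lower and 0 higher, against 14.4% lower and 12.7% higher among all genes. The 2 that passed were Wdr43 and Ddx21. Wdr43 differed by -0.40 ± 0.10 (SE) on the log2 scale (limma, adjusted p = 0.0361), and Ddx21 by -0.52 ± 0.12 (SE) (limma, adjusted p = 0.0373). Both calls were lost without the libraries with Xist RNA, and also when any of these saline-treated WT mice, replicate 1, 2 or 4, or any one saline-treated Plod1-/- mouse was left out. The median of the 39 genes was -0.22, against -0.01 over all genes. For 4 of the 39 there was no overlap, against 9.52% of all genes, and none passed the threshold of 1 together with the adjusted p, which 0.767% of all genes did.

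Within Plod1-/- mice, the contrast that chose Myc, 26 of the 38 nucleolar genes were higher under Ang II and 0 lower, beside 23.8% higher and 20.1% lower among 12333 genes. These values are a description. The median of the 39 was 0.46 beside 0.05 over all genes, and 24 had groups that did not overlap beside 29.2% of all genes. Of the 38 nucleolar genes, 0 passed the threshold of 1, beside 13.9% of all genes. The WT and the Plod1-/- responses come from different mice. A negative log2 fold change in WT mice went with a positive one in Plod1-/- mice in 35 of the 39 genes. Taken alone, 37 of the 39 were negative in WT mice and 37 were positive in Plod1-/- mice. Of the 21 nucleolar genes lower in WT mice, 14 (66.7%) were among the 26 higher in Plod1-/- mice, beside 68.4% of all 38. These 14 were 53.8% of the 26, beside 55.3% of all 38 that were lower in WT mice. Genes lower in WT mice were thus not more often higher in Plod1-/- mice than the 38 as a whole.

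**Figure D3:**
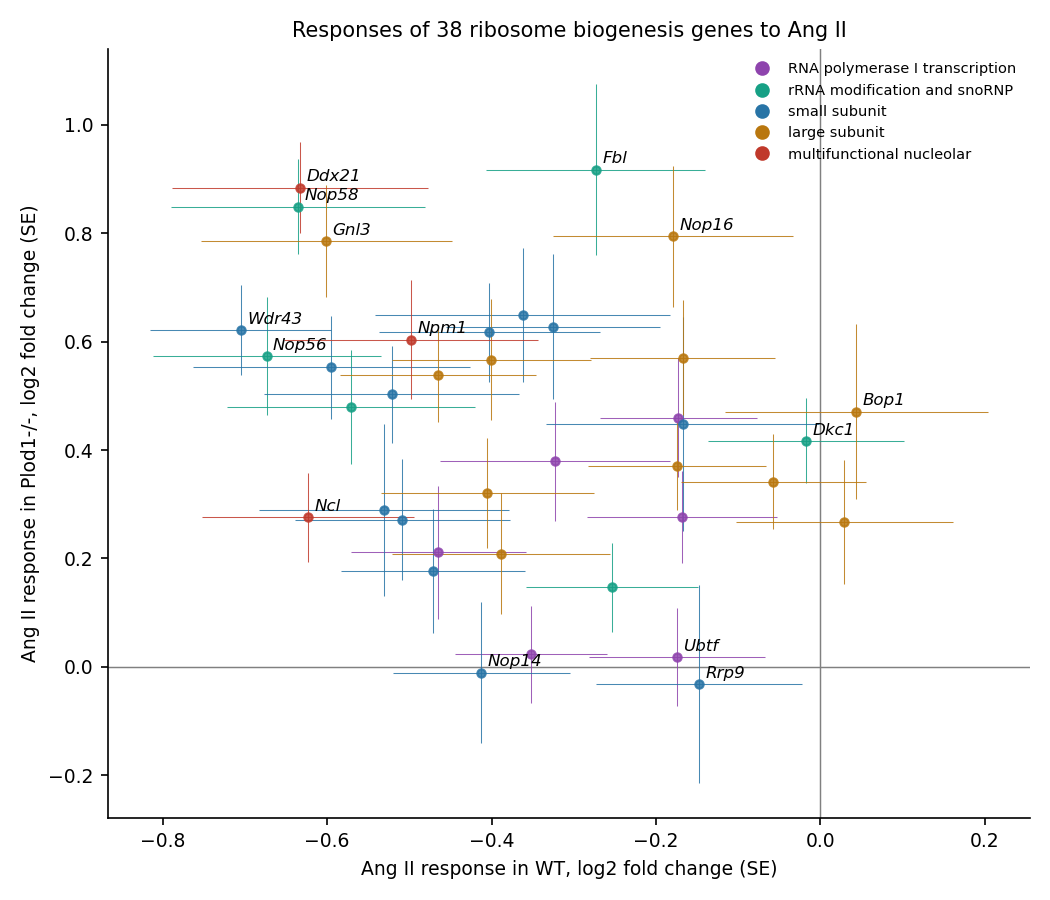
Log2 fold change of each of the 38 nucleolar genes between Ang II and saline in WT mice (horizontal axis) and in Plod1-/- mice (vertical axis), with bars for the SE and colours for the role. Nearly all genes lie in the upper left, lower under Ang II in WT and higher in Plod1-/- mice, with Nop14 and Rrp9 just below 0 on the vertical axis and Bop1 and Rrs1 just above 0 on the horizontal axis.

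The difference between the responses of both genotypes contains the contrast that chose Myc, and it is given as values. It was positive at an adjusted p below 0.05 (limma) in 32 of the 38 nucleolar genes and negative in 0. Among 13263 genes fitted in all 20 mice, 23.8% were positive and 14.1% negative. The median of this difference over the 39 genes was 0.78 on the log2 scale, beside 0.12 over all genes. In 13 of the 38 nucleolar genes it was also above 1, as it was in 1285 of the 13263 genes. Counting both directions, 16.1% of all genes passed the threshold of 1 in size. The highest values after Myc were those of Ddx21, at 1.52 ± 0.18 (SE), and Nop58, at 1.48 ± 0.18 (SE).

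E-box letters were looked for in the promoters because Myc with Max is known to bind them. Windows of 300 bases, from 250 before to 50 after the gene start, were taken from RefSeq on GRCm38.p6, and 33 of the 39 genes had one. Myc, Npm1, Fbl, Bop1, Rrs1 and Rrp12 had none. The motif CACGTG, which reads the same on both strands, stood in the windows of 8 of the 33 genes (24.2%), namely Ltv1, Mybbp1a, Nop2, Pes1, Rrn3, Tsr1, Utp20 and Wdr43. It stood in 11.7% of the 9389 genes fitted in all 20 mice that had a window and in 8.09% of the 27025 genes with a window. CACGCG, searched on both strands and unable to share letters with CACGTG, stood in 27.3% of the 33, 19.8% of the fitted genes and 10.5% of all. A match is a description of the letters and not a measured binding site. The 8 genes with CACGTG include Wdr43, among the genes with the largest decrease in WT mice, and Rrn3, which did not pass the test in WT mice or between the Ang II-treated genotypes. The windows of the most highly expressed gene with CACGTG in each role that had one are shown on the strand of the gene, with CACGTG in capitals. They are Mybbp1a (chr11:72441077-72441376, plus strand), Ltv1 (chr10:13193088-13193387, minus strand) and Pes1 (chr11:3963725-3964024, plus strand).
Mybbp1a: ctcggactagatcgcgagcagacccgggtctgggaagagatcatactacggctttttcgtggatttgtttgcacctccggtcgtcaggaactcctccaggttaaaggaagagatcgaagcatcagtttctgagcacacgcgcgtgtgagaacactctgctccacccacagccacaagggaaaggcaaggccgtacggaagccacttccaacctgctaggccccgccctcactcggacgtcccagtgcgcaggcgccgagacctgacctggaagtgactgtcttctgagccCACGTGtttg
Ltv1: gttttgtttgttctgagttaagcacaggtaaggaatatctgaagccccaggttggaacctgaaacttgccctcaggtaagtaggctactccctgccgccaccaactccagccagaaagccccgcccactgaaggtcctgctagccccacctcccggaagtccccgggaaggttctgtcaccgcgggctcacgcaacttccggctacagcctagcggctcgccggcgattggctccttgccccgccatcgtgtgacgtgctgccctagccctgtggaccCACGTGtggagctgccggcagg
Pes1: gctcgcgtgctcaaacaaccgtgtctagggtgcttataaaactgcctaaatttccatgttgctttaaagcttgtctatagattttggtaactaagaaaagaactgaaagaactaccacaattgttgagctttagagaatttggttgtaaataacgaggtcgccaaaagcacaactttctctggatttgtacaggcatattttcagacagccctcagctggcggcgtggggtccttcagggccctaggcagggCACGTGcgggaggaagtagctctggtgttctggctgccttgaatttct
In all 3 windows the motif begins after the annotated start, at base 41 of the transcript in Mybbp1a, base 29 in Ltv1 and base 3 in Pes1. These 3 genes did not move alike in WT mice, where Mybbp1a and Ltv1 were lower under Ang II and Pes1 had a log2 fold change of -0.06 ± 0.11 (SE) that did not pass (adjusted p = 0.695).

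Of the 6 genes of RNA polymerase I transcription, 2 (33.3%) were lower in WT mice under Ang II, against 21.5% of all genes. Between the Ang II-treated genotypes 3 (50%) were higher in Plod1-/- mice, against 20.8% of all genes. Mybbp1a, a nucleolar protein that acts in rRNA synthesis and processing, had the highest level of the role. Mybbp1a was at 26.6, 29.8, 24.2, 27.7 and 26.5 FPKM in saline-treated and 20.8, 16.5, 19.1, 22.3 and 17.9 FPKM in Ang II-treated WT mice. Mybbp1a levels in Plod1-/- mice were 24.7, 22.1, 22.5, 24.7 and 23.5 FPKM under saline and 36.4, 28.2, 24.8, 26.8 and 22.2 FPKM under Ang II. The WT groups did not overlap, and Ang II-treated Plod1-/- replicate 1 stood above the rest of its group. Mybbp1a had a log2 fold change by limma of -0.46 (SE 0.11, adjusted p = 0.00867) in WT mice, and of 0.49 (SE 0.15, adjusted p = 0.0281) between the Ang II-treated genotypes. Polr1a, the catalytic subunit of RNA polymerase I, was low. Polr1a was at 2.09, 2.48, 2.11, 2.68 and 2.14 FPKM in saline-treated and 2.26, 1.9, 1.85, 1.76 and 1.86 FPKM in Ang II-treated WT mice. Polr1a levels in Plod1-/- mice were 2.01, 2.09, 1.92, 2.24 and 2.05 FPKM under saline and 2.72, 3.96, 2.65, 3.94 and 2.96 FPKM under Ang II. Every Ang II-treated Plod1-/- mouse lay above every Ang II-treated WT mouse. By limma, Polr1a had a log2 fold change of -0.17 (SE 0.10, adjusted p = 0.165) in WT mice and of 0.53 (SE 0.12, adjusted p = 0.0113) between the Ang II-treated genotypes. The WT value of Polr1a did not pass the test. Polr1c is a subunit that RNA polymerases I and III share. Polr1c was at 21.1, 20.2, 20.2, 20.6 and 20.4 FPKM in saline-treated and 16.2, 14.5, 14.6, 18.2 and 16 FPKM in Ang II-treated WT mice. Polr1c levels in Plod1-/- mice were 18.6, 17.9, 20.7, 16.8 and 16.6 FPKM under saline and 18.4, 19.8, 19.5, 17.8 and 16.6 FPKM under Ang II. The saline-treated WT mice were tightly grouped and all above the Ang II-treated WT mice, whereas the Plod1-/- groups overlapped. The log2 fold change of Polr1c by limma was -0.35 (SE 0.09, adjusted p = 0.0146) in WT mice, and 0.20 (SE 0.11, adjusted p = 0.17) in Plod1-/- against WT mice under Ang II. The genotype value of Polr1c did not pass the test. The other 3 were Polr1b, the other large subunit, Rrn3, the initiation factor that brings the polymerase to the rRNA genes, and Ubtf, which keeps those genes open. Polr1b was higher between the Ang II-treated genotypes at 4.16 ± 0.7 (SD, n = 5) against 2.66 ± 0.163 (SD, n = 5) FPKM, and did not pass in WT mice. Ubtf stayed within 21.8 to 24.8 FPKM as group means and passed neither test, with an interval of -0.17 to 0.33 for the log2 difference between the Ang II-treated genotypes.

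**Figure D4:**
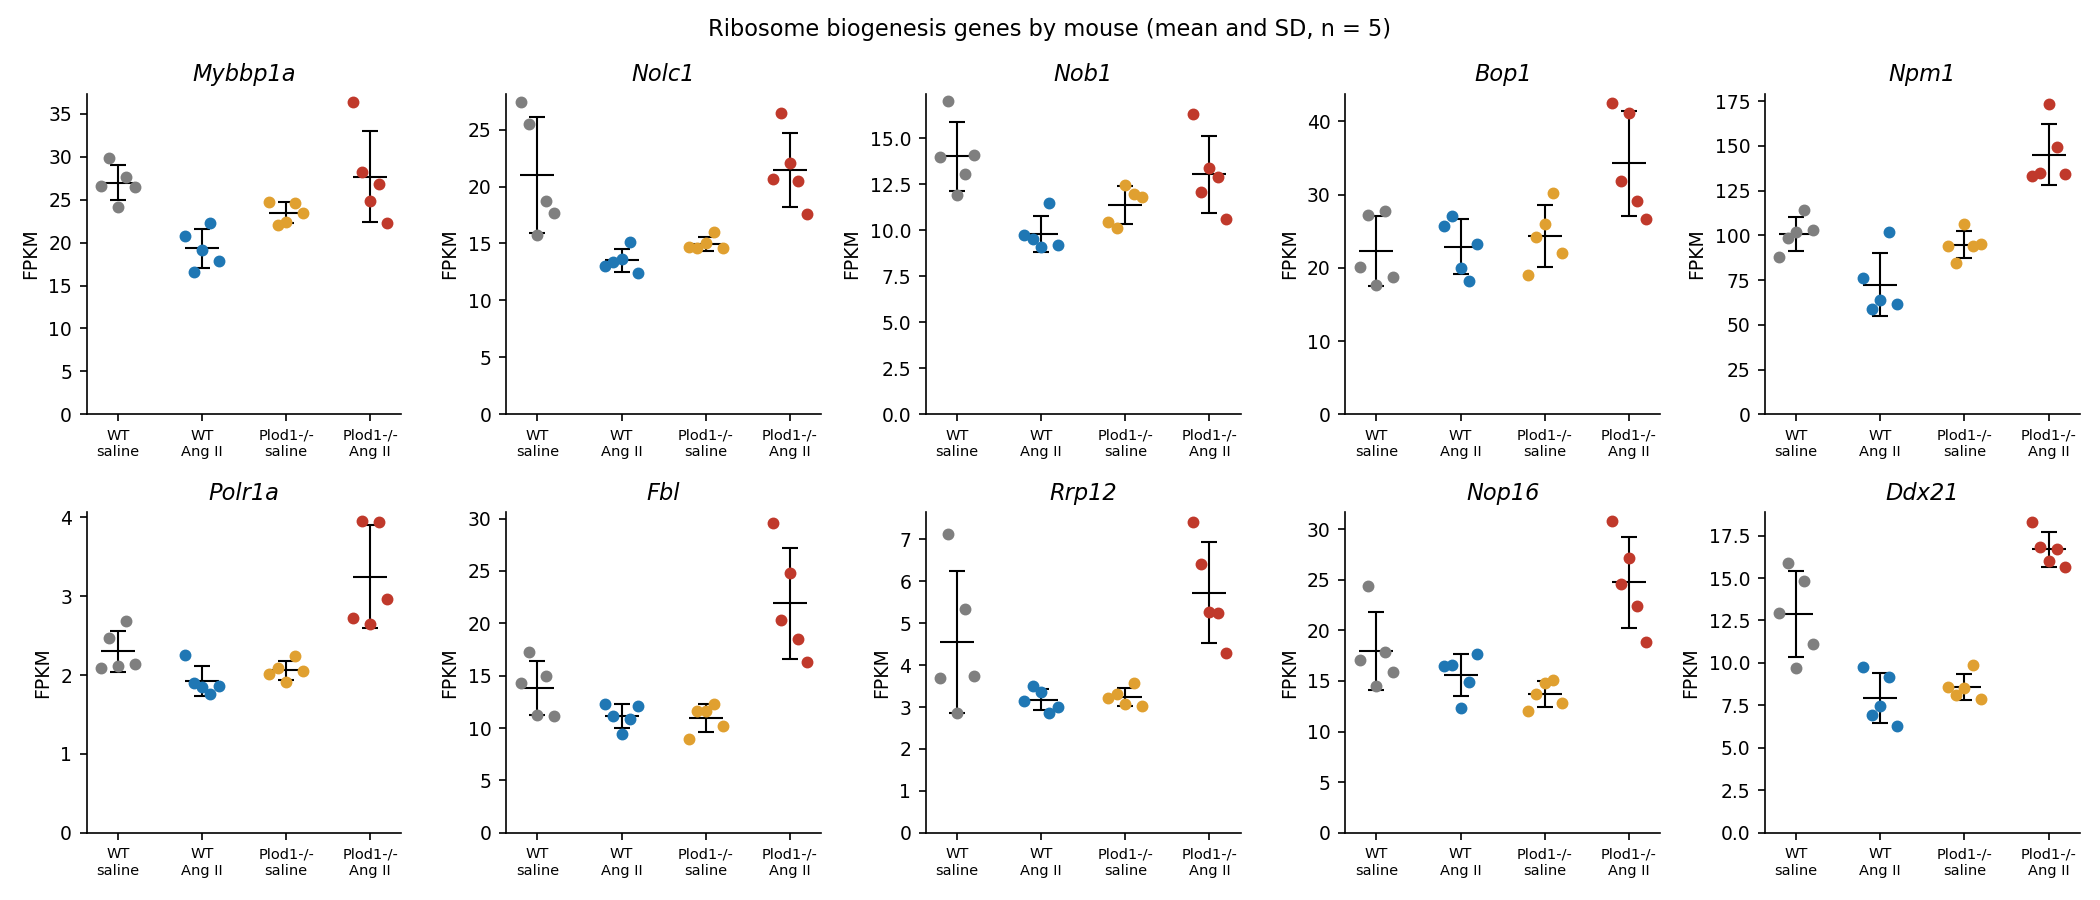
FPKM in each mouse (points in order of replicate number, vertical axis from 0) by group for 10 genes, with bars for the mean and SD of 5 mice. The upper row holds the gene with the highest mean FPKM of each role and the lower row the one with the largest response in Plod1-/- mice, and in Ddx21 and Npm1 the 5 Ang II-treated Plod1-/- mice lie above all Ang II-treated WT mice.

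Of the 6 snoRNP and rRNA modification genes, 3 (50%) were lower under Ang II in WT mice, against 21.5% of all genes. Under Ang II 5 (83.3%) were higher in Plod1-/- than in WT mice, against 20.8% of all genes. Nolc1 is a chaperone of snoRNPs and had the highest level of the role. Nolc1 was at 27.4, 25.5, 15.7, 18.8 and 17.7 FPKM in saline-treated and 13, 13.4, 13.7, 15.1 and 12.4 FPKM in Ang II-treated WT mice. Nolc1 levels in Plod1-/- mice were 14.7, 14.6, 15.1, 16 and 14.6 FPKM under saline and 20.7, 26.5, 22, 20.5 and 17.5 FPKM under Ang II. Ang II-treated WT mice lay below every mouse of the saline-treated WT and the Ang II-treated Plod1-/- groups. For Nolc1, limma gave a log2 fold change of -0.57 (SE 0.15, adjusted p = 0.0153) in WT mice and of 0.62 (SE 0.12, adjusted p = 0.0062) between the Ang II-treated genotypes. Fbl encodes fibrillarin, the methyltransferase of box C/D snoRNPs. Fbl was at 14.3, 17.3, 11.3, 14.9 and 11.2 FPKM in saline-treated and 12.3, 11.1, 9.42, 10.8 and 12.1 FPKM in Ang II-treated WT mice. Fbl levels in Plod1-/- mice were 8.94, 11.6, 11.6, 12.3 and 10.2 FPKM under saline and 29.6, 20.3, 24.8, 18.5 and 16.3 FPKM under Ang II. Ang II-treated Plod1-/- replicate 1 was the highest of its group, and the WT groups overlapped. Fbl had a log2 fold change by limma of -0.27 (SE 0.13, adjusted p = 0.119) in WT mice, and of 0.89 (SE 0.16, adjusted p = 0.00423) between the Ang II-treated genotypes. The WT value of Fbl did not pass the test. Nop56 and Nop58 are the paired scaffold proteins of the same particles. Nop56 was at 18.6, 21, 14.2, 17.6 and 13.8 FPKM in saline-treated and 9.35, 9.42, 10.02, 13 and 9.53 FPKM in Ang II-treated WT mice. Nop56 levels in Plod1-/- mice were 12, 12, 12.6, 13.3 and 14.4 FPKM under saline and 24, 17.9, 21.8, 17.8 and 17.3 FPKM under Ang II. Nop56 overlaps Idh3b, a mitochondrial enzyme gene on the opposite strand with up to 245 FPKM, and since the libraries did not keep the strand, its values are uncertain. By limma, Nop56 had a log2 fold change of -0.67 (SE 0.14, adjusted p = 0.00551) in WT mice and of 0.88 (SE 0.14, adjusted p = 0.00223) between the Ang II-treated genotypes. Nop58 was at 4.22, 3.95, 2.37, 3.03 and 2.51 FPKM in saline-treated and 1.75, 1.35, 1.59, 2.41 and 1.4 FPKM in Ang II-treated WT mice. Nop58 levels in Plod1-/- mice were 1.91, 1.88, 2.1, 2.3 and 2.24 FPKM under saline and 5.28, 4.09, 4.75, 4.45 and 4.25 FPKM under Ang II. All Ang II-treated Plod1-/- mice were above all Ang II-treated WT and all saline-treated Plod1-/- mice. The log2 fold change of Nop58 by limma was -0.64 (SE 0.15, adjusted p = 0.011) in WT mice, and 1.05 (SE 0.13, adjusted p = 0.001) in Plod1-/- against WT mice under Ang II. Dkc1, the pseudouridine synthase of box H/ACA snoRNPs, was 1 of 3 genes of the 39, with Rrp1b and Npm1, whose 5 Ang II-treated Plod1-/- values were above those of all 15 other mice, as were those of 4.12% of all genes fitted in the 20 mice. Under Ang II its level was 6.02 ± 0.114 (SD, n = 5) FPKM in Plod1-/- mice, against 4.06 ± 0.573 (SD, n = 5) in WT. Dkc1 overlaps Mpp1, at up to 21.8 FPKM, on the opposite strand, so the values of Dkc1 are uncertain too. Nat10, which acetylates rRNA, passed neither test.

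The small subunit pathway was followed through 12 genes. In WT mice 8 of them (66.7%) were lower under Ang II, against 21.5% of all genes. Between the Ang II-treated genotypes 8 (66.7%) were higher in Plod1-/- mice, against 20.8% of all genes. Nob1, the endonuclease that makes the final cut in the small subunit rRNA, had the highest level of the role. Nob1 was at 14, 17, 11.9, 13 and 14.1 FPKM in saline-treated and 9.71, 9.53, 9.07, 11.5 and 9.17 FPKM in Ang II-treated WT mice. Nob1 levels in Plod1-/- mice were 10.5, 10.1, 12.5, 11.9 and 11.8 FPKM under saline and 16.3, 12, 13.4, 12.9 and 10.6 FPKM under Ang II. Ang II-treated WT mice were all below the saline-treated WT mice, with replicate 4 standing above the 4 others. For Nob1, limma gave a log2 fold change of -0.47 (SE 0.11, adjusted p = 0.01) in WT mice and of 0.37 (SE 0.13, adjusted p = 0.0463) between the Ang II-treated genotypes. The genotype call of Nob1 was lost under most alternatives. Rrp12, a factor of ribosomal subunit export, had the largest response of the role in Plod1-/- mice. Rrp12 was at 3.7, 7.12, 2.85, 5.33 and 3.75 FPKM in saline-treated and 3.15, 3.5, 3.36, 2.86 and 3.01 FPKM in Ang II-treated WT mice. Rrp12 levels in Plod1-/- mice were 3.22, 3.32, 3.07, 3.58 and 3.02 FPKM under saline and 7.43, 6.4, 5.28, 5.25 and 4.29 FPKM under Ang II. The saline-treated WT mice were widely spread, so the WT groups overlapped. Rrp12 had a log2 fold change by limma of -0.36 (SE 0.18, adjusted p = 0.123) in WT mice, and of 0.67 (SE 0.14, adjusted p = 0.00651) between the Ang II-treated genotypes. The WT value of Rrp12 did not pass the test. Wdr43, Wdr75, Heatr1, Utp20 and Nop14 belong to the small subunit processome, the large particle that forms on the nascent rRNA precursor. Wdr43 was at 10.7, 11.8, 9.16, 10.5 and 8.5 FPKM in saline-treated and 5.82, 5.38, 5.51, 6.79 and 5.54 FPKM in Ang II-treated WT mice. Wdr43 levels in Plod1-/- mice were 7.29, 6.88, 6.72, 8.56 and 7.47 FPKM under saline and 11.8, 11.4, 11.9, 11.6 and 12.7 FPKM under Ang II. Wdr43 had no overlap between groups in either comparison. By limma, Wdr43 had a log2 fold change of -0.70 (SE 0.11, adjusted p = 0.00206) in WT mice and of 0.92 (SE 0.10, adjusted p = 0.000612) between the Ang II-treated genotypes. Wdr75 was at 4.84, 6.25, 4.42, 5.78 and 4.8 FPKM in saline-treated and 4.1, 2.86, 3.54, 4.86 and 3.28 FPKM in Ang II-treated WT mice. Wdr75 levels in Plod1-/- mice were 3.95, 4.15, 3.99, 4.56 and 4.92 FPKM under saline and 6.12, 7.44, 7.41, 6.93 and 7.89 FPKM under Ang II. Its Ang II-treated WT replicate 4 reached the saline-treated WT range, so the WT groups overlapped. The log2 fold change of Wdr75 by limma was -0.40 (SE 0.13, adjusted p = 0.0357) in WT mice, and 0.80 (SE 0.13, adjusted p = 0.00297) in Plod1-/- against WT mice under Ang II.

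Heatr1 was at 2.75, 5.59, 2.45, 4.36 and 3.03 FPKM in saline-treated and 1.91, 1.87, 1.82, 2.23 and 2.08 FPKM in Ang II-treated WT mice. Heatr1 levels in Plod1-/- mice were 2.2, 2.29, 2.5, 2.69 and 2.52 FPKM under saline and 3.59, 4.24, 4.86, 4.17 and 3.45 FPKM under Ang II. For Heatr1 neither comparison had overlapping groups, and it overlaps Lgals8, at up to 19.2 FPKM, on the opposite strand. For Heatr1, limma gave a log2 fold change of -0.59 (SE 0.17, adjusted p = 0.02) in WT mice and of 0.76 (SE 0.11, adjusted p = 0.00182) between the Ang II-treated genotypes. Utp20 was at 2.27, 2.99, 2.28, 3.15 and 1.86 FPKM in saline-treated and 1.4, 1.12, 1.41, 1.92 and 1.43 FPKM in Ang II-treated WT mice. Utp20 levels in Plod1-/- mice were 1.78, 1.6, 1.46, 2.25 and 1.9 FPKM under saline and 3.11, 2.27, 2.31, 2.26 and 1.96 FPKM under Ang II. Utp20 separated the Ang II-treated genotypes by a narrow gap. Utp20 had a log2 fold change by limma of -0.51 (SE 0.13, adjusted p = 0.0134) in WT mice, and of 0.46 (SE 0.13, adjusted p = 0.0195) between the Ang II-treated genotypes. Nop14 was at 15.2, 15, 12.8, 13.9 and 12.4 FPKM in saline-treated and 11, 8.89, 9.82, 11.9 and 9.29 FPKM in Ang II-treated WT mice. Nop14 levels in Plod1-/- mice were 11.7, 11.7, 12, 12.6 and 11.3 FPKM under saline and 15.3, 14.3, 10.4, 10.3 and 9.61 FPKM under Ang II. Nop14 fell in WT mice, whereas its Ang II-treated Plod1-/- mice spread over both sides of the saline values. By limma, Nop14 had a log2 fold change of -0.41 (SE 0.11, adjusted p = 0.0146) in WT mice and of 0.20 (SE 0.15, adjusted p = 0.333) between the Ang II-treated genotypes. The genotype value of Nop14 did not pass the test. Tsr1 and Ltv1 act late, on the precursor of the small subunit as it leaves the nucleus. Tsr1 was at 2.33, 2.89, 2.62, 2.5 and 3.16 FPKM in saline-treated and 1.58, 1.04, 1.76, 2.54 and 1.11 FPKM in Ang II-treated WT mice. Tsr1 levels in Plod1-/- mice were 2.2, 1.75, 2.44, 1.71 and 1.73 FPKM under saline and 1.82, 2.36, 2.13, 3.04 and 4.09 FPKM under Ang II. Tsr1 varied widely between Ang II-treated mice of both genotypes. The log2 fold change of Tsr1 by limma was -0.53 (SE 0.15, adjusted p = 0.0209) in WT mice, and 0.50 (SE 0.20, adjusted p = 0.076) in Plod1-/- against WT mice under Ang II. The genotype value of Tsr1 did not pass the test. Ltv1 was at 14, 14.6, 10.2, 16 and 9.47 FPKM in saline-treated and 8.66, 7.39, 8.68, 10.5 and 7.48 FPKM in Ang II-treated WT mice. Ltv1 levels in Plod1-/- mice were 9.99, 9.72, 9.58, 11.2 and 11.9 FPKM under saline and 17.1, 15.2, 14.4, 15.3 and 14.2 FPKM under Ang II. Ltv1 separated the Ang II-treated genotypes without overlap. For Ltv1, limma gave a log2 fold change of -0.52 (SE 0.16, adjusted p = 0.0242) in WT mice and of 0.77 (SE 0.12, adjusted p = 0.00214) between the Ang II-treated genotypes. Of the 3 remaining genes, Wdr3, also of the processome, was higher between the Ang II-treated genotypes at 4 ± 0.909 (SD, n = 5) against 1.99 ± 0.46 (SD, n = 5) FPKM. Rrp9, a snoRNP protein that guides early cuts, and Bysl, an assembly factor of the small subunit, passed neither test. In both, Ang II-treated Plod1-/- replicate 1 was the highest mouse, at 19.9 and 19 FPKM. Across the 38 nucleolar genes that mouse, one of those with Xist RNA, was the highest of its group in 19.

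**Figure D5:**
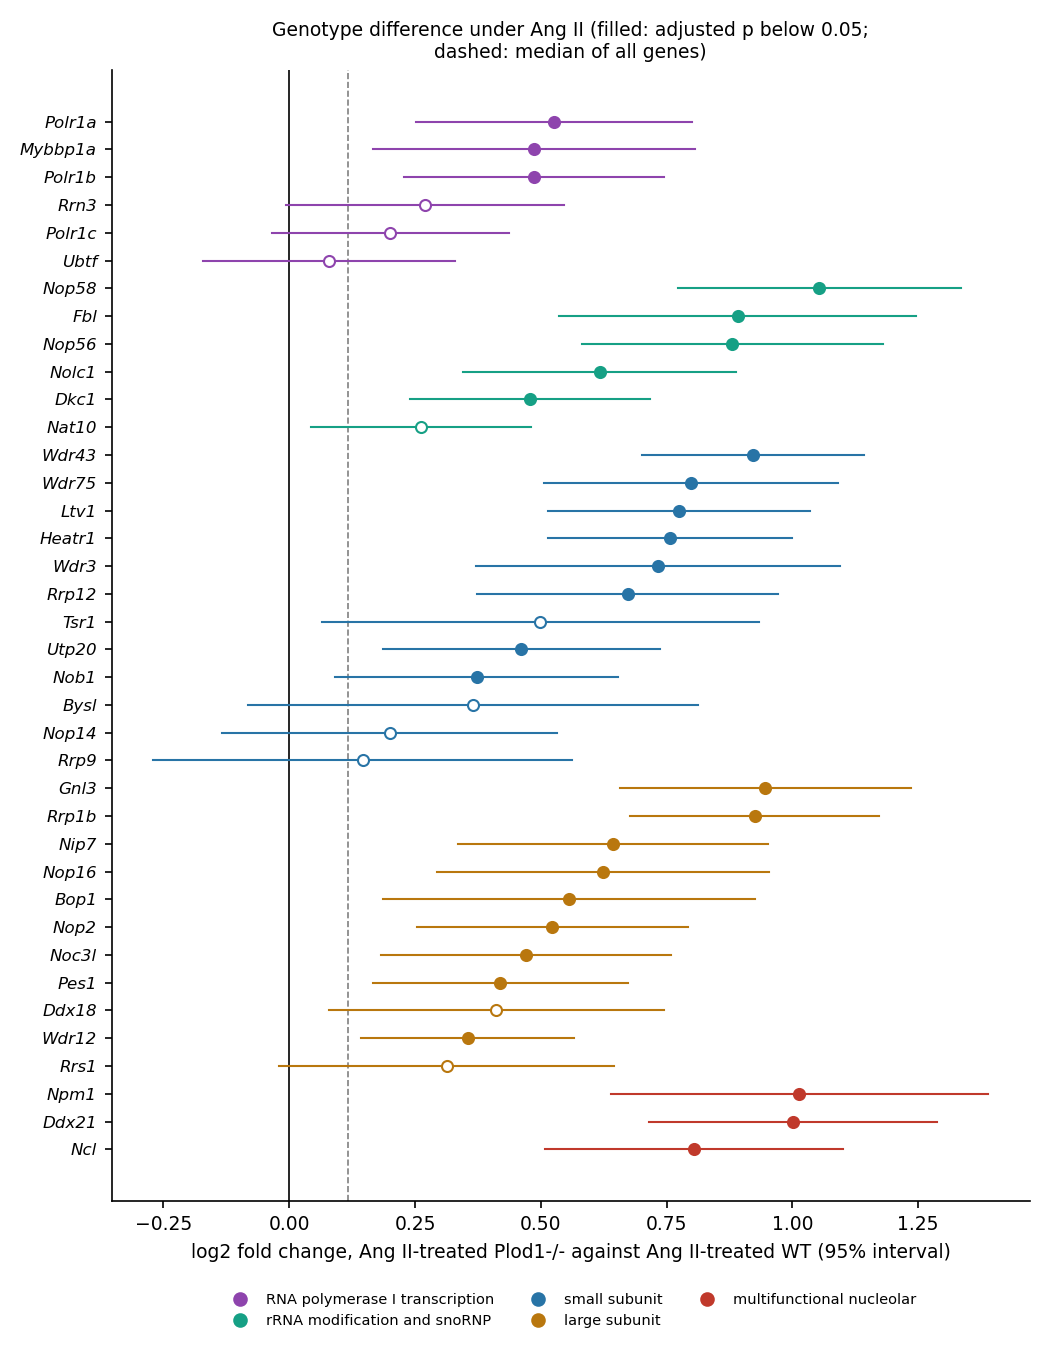
Log2 fold change of Plod1-/- against WT mice under Ang II (horizontal axis) for the 38 nucleolar genes, sorted within their role, with 95% intervals and filled points for an adjusted p below 0.05. All points lie above 0, from 0.08 for Ubtf to 1.05 for Nop58, and the dashed line at 0.12 is the median of all genes tested.

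The large subunit pathway was followed through 11 genes. Of these, 5 (45.5%) were lower under Ang II in WT mice, against 21.5% of all genes. Between the Ang II-treated genotypes 9 (81.8%) were higher in Plod1-/- mice, against 20.8% of all genes. Bop1, Pes1 and Wdr12 form the PeBoW complex, which is needed for the large subunit rRNA. Bop1 was at 20.1, 27.2, 17.6, 27.8 and 18.7 FPKM in saline-treated and 25.7, 27.1, 19.99, 18.2 and 23.2 FPKM in Ang II-treated WT mice. Bop1 levels in Plod1-/- mice were 19, 24.2, 26, 30.2 and 22 FPKM under saline and 42.5, 31.9, 41.1, 29.1 and 26.7 FPKM under Ang II. Bop1 had the highest level of the role and one of the 2 positive values in WT mice, both of which turned negative with some of the mice left out, and it overlaps Scx, at up to 32.6 FPKM, on the opposite strand. Bop1 had a log2 fold change by limma of 0.04 (SE 0.16, adjusted p = 0.837) in WT mice, and of 0.56 (SE 0.17, adjusted p = 0.0291) between the Ang II-treated genotypes. The WT value of Bop1 did not pass the test. Pes1 and Wdr12 likewise passed between the Ang II-treated genotypes and not in WT mice, with 25 ± 2.48 (SD, n = 5) against 18.4 ± 1.85 (SD, n = 5) FPKM for Pes1. Nop16, an assembly factor of the large subunit, responded most in Plod1-/- mice. Nop16 was at 17.1, 24.4, 14.5, 17.9 and 15.9 FPKM in saline-treated and 16.5, 16.6, 12.4, 14.9 and 17.7 FPKM in Ang II-treated WT mice. Nop16 levels in Plod1-/- mice were 12, 13.7, 14.8, 15.1 and 12.9 FPKM under saline and 30.7, 24.6, 27.1, 22.4 and 18.9 FPKM under Ang II. The WT groups overlapped, and the Ang II-treated genotypes did not. By limma, Nop16 had a log2 fold change of -0.18 (SE 0.15, adjusted p = 0.333) in WT mice and of 0.62 (SE 0.15, adjusted p = 0.0121) between the Ang II-treated genotypes. The WT value of Nop16 did not pass the test. Gnl3, or nucleostemin, is a GTPase of the nucleolus known from proliferating and stem cells. Gnl3 was at 26.8, 30.4, 18.3, 23.7 and 19.6 FPKM in saline-treated and 16.5, 13, 13.4, 18.4 and 14.6 FPKM in Ang II-treated WT mice. Gnl3 levels in Plod1-/- mice were 16.1, 17.4, 15.7, 19.8 and 16 FPKM under saline and 35.5, 31.7, 26.6, 28.8 and 28 FPKM under Ang II. The lowest Ang II-treated Plod1-/- mouse exceeded the highest of the saline-treated Plod1-/- and of the Ang II-treated WT mice. The log2 fold change of Gnl3 by limma was -0.60 (SE 0.15, adjusted p = 0.013) in WT mice, and 0.95 (SE 0.13, adjusted p = 0.00155) in Plod1-/- against WT mice under Ang II.

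Rrp1b, a nucleolar protein of the large subunit pathway, had a low level. Rrp1b was at 1.93, 2.91, 2.15, 2.65 and 2.6 FPKM in saline-treated and 1.74, 1.15, 1.3, 1.85 and 1.45 FPKM in Ang II-treated WT mice. Rrp1b levels in Plod1-/- mice were 2.5, 2.05, 1.92, 2.26 and 2.56 FPKM under saline and 3.75, 3.42, 3.5, 3.84 and 4.09 FPKM under Ang II. The WT groups did not overlap, nor did the Ang II-treated genotypes. For Rrp1b, limma gave a log2 fold change of -0.47 (SE 0.12, adjusted p = 0.0134) in WT mice and of 0.92 (SE 0.11, adjusted p = 0.001) between the Ang II-treated genotypes. Nip7, Ddx18 and Noc3l are further assembly factors, Ddx18 an RNA helicase. Nip7 was at 9.34, 9.99, 7.77, 8.95 and 7.41 FPKM in saline-treated and 6.67, 5.73, 5.55, 7.97 and 5.87 FPKM in Ang II-treated WT mice. Nip7 levels in Plod1-/- mice were 6.31, 6.69, 7.48, 6.62 and 6.46 FPKM under saline and 13, 8.98, 11.4, 10.5 and 8.74 FPKM under Ang II. The WT groups of Nip7 overlapped through Ang II-treated replicate 4. Nip7 had a log2 fold change by limma of -0.40 (SE 0.12, adjusted p = 0.0255) in WT mice, and of 0.64 (SE 0.14, adjusted p = 0.00834) between the Ang II-treated genotypes. Ddx18 was at 15.9, 17.8, 13.1, 16.4 and 14.4 FPKM in saline-treated and 10.6, 9.67, 11.7, 15.5 and 11 FPKM in Ang II-treated WT mice. Ddx18 levels in Plod1-/- mice were 13.2, 12.5, 14.2, 14 and 13.4 FPKM under saline and 13.2, 18, 19.3, 14.2 and 14.6 FPKM under Ang II. For Ddx18 the same mouse, Ang II-treated WT replicate 4, lay among the saline-treated mice. By limma, Ddx18 had a log2 fold change of -0.39 (SE 0.13, adjusted p = 0.0388) in WT mice and of 0.41 (SE 0.15, adjusted p = 0.0594) between the Ang II-treated genotypes. The genotype value of Ddx18 did not pass the test. Its WT call was lost under most alternatives. Noc3l was at 3.61, 4.36, 3.11, 3.46 and 3.54 FPKM in saline-treated and 2.18, 2.15, 2.71, 3.49 and 2.02 FPKM in Ang II-treated WT mice. Noc3l levels in Plod1-/- mice were 2.65, 3.02, 2.2, 3.13 and 3.35 FPKM under saline and 3.46, 4.26, 3.53, 3.82 and 4.01 FPKM under Ang II. Noc3l overlapped in both comparisons. The log2 fold change of Noc3l by limma was -0.41 (SE 0.13, adjusted p = 0.0308) in WT mice, and 0.47 (SE 0.13, adjusted p = 0.0213) in Plod1-/- against WT mice under Ang II. The WT call was lost under most alternatives and the genotype call under 8 of 20. Nop2, an rRNA methyltransferase, passed between the Ang II-treated genotypes with 23.5 ± 3.59 (SD, n = 5) against 15.9 ± 0.824 (SD, n = 5) FPKM and did not pass in WT mice. Rrs1, which helps to build in a small rRNA of the large subunit, passed neither test and was at 21 ± 2.56 (SD, n = 5) against 16.9 ± 3.44 (SD, n = 5) FPKM.

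All 3 genes with several nucleolar roles were lower under Ang II in WT mice and higher in Plod1-/- mice between the Ang II-treated genotypes. Among all genes, 21.5% were lower in the first comparison and 20.8% higher in the second. Npm1, nucleophosmin, is an abundant chaperone of ribosome assembly and had the highest level of the 39 genes. Npm1 was at 87.7, 98.4, 102, 114 and 103 FPKM in saline-treated and 76, 58.9, 64, 102 and 61.5 FPKM in Ang II-treated WT mice. Npm1 levels in Plod1-/- mice were 94.2, 84.5, 106, 94.2 and 95.3 FPKM under saline and 133, 135, 173, 149 and 135 FPKM under Ang II. Ang II-treated WT replicate 4 was as high as the saline-treated mice, and the Ang II-treated Plod1-/- mice were above all others. For Npm1, limma gave a log2 fold change of -0.50 (SE 0.15, adjusted p = 0.0281) in WT mice and of 1.01 (SE 0.17, adjusted p = 0.00308) between the Ang II-treated genotypes. Ncl, nucleolin, binds rRNA and acts from its transcription to its folding. Ncl was at 29.9, 31.5, 29.3, 35.2 and 27.2 FPKM in saline-treated and 21.8, 17.3, 17.8, 24.9 and 16.6 FPKM in Ang II-treated WT mice. Ncl levels in Plod1-/- mice were 28.6, 27.7, 30.3, 27.8 and 28.2 FPKM under saline and 34.8, 37.4, 35.6, 36 and 30.3 FPKM under Ang II. No Ang II-treated WT mouse reached the saline-treated WT range. Ncl had a log2 fold change by limma of -0.62 (SE 0.13, adjusted p = 0.00562) in WT mice, and of 0.80 (SE 0.13, adjusted p = 0.00306) between the Ang II-treated genotypes. Ddx21 is an RNA helicase that links RNA polymerase transcription to rRNA processing. Ddx21 was at 12.9, 15.9, 9.69, 14.8 and 11.1 FPKM in saline-treated and 9.75, 6.96, 7.48, 9.2 and 6.26 FPKM in Ang II-treated WT mice. Ddx21 levels in Plod1-/- mice were 8.6, 8.13, 8.5, 9.89 and 7.88 FPKM under saline and 18.3, 16.8, 16, 16.7 and 15.6 FPKM under Ang II. The Ang II-treated Plod1-/- mice lay in a narrow band above all Ang II-treated WT mice. By limma, Ddx21 had a log2 fold change of -0.63 (SE 0.16, adjusted p = 0.0114) in WT mice and of 1.00 (SE 0.13, adjusted p = 0.00129) between the Ang II-treated genotypes.

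The 39 genes lie on 17 chromosomes, and 7 of them hold annotated snoRNAs within the gene, 21 in all. These host genes are Nop56, Nop58, Wdr43, Gnl3, Ncl, Tsr1 and Dkc1. They make up 17.9% of the 39, against 1.18% of the 21951 protein-coding genes annotated. In WT mice 6 of the 7 hosts were lower under Ang II, and so were 15 of the 31 other nucleolar genes and 21.5% of all genes. Between the Ang II-treated genotypes 6 of the 7 and 22 of the 31 were higher in Plod1-/- mice, against 20.8% of all genes. Another gene overlaps 16 of the 39 on the opposite strand, and the values of those 16 are uncertain to that extent.

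A wider list of ribosome biogenesis genes outside the 38 was also counted. Of 88 tested, 33 (37.5%, against 21.5% of all genes) were lower under Ang II in WT mice and 0 higher, with a median of -0.28. Between the Ang II-treated genotypes 39 of the 88 (44.3%, against 20.8% of all genes) were higher in Plod1-/- mice and 1 lower, with a median of 0.33. The lower one was Taf1a, a subunit of the factor that places RNA polymerase I at its promoter, with a log2 fold change of -0.67. Taf1a also had the lowest value of this list in Plod1-/- mice, -1.35, followed by Naf1, an assembly factor of box H/ACA snoRNPs, at -0.55. Nhp2, a core protein of those particles, had the highest at 1.46, and Eif6, which keeps the subunits apart, followed at 0.86. The proteins of the cytoplasmic ribosome itself were counted too. Of 78 ribosomal protein genes tested, 23 (29.5%, against 21.5%) were lower under Ang II in WT mice and 0 higher, and 66 (84.6%, against 20.8%) were higher in Plod1-/- mice between the Ang II-treated genotypes and 0 lower.

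The Myc network holds Max, the partner with which Myc binds DNA, and the proteins that pair with Max in its place. Of 15 genes of the network tested in WT mice, 5 (33.3%) were lower and 2 (13.3%) higher under Ang II, against 21.5% and 16.5% of all genes. Of 17 tested between the Ang II-treated genotypes, 4 (23.5%) were higher in Plod1-/- mice and 1 (5.88%) lower, against 20.8% and 10.4% of all genes. Max itself, named as the direct partner of Myc and not by its values, had a log2 fold change of -0.05 in WT mice and 0.05 between the Ang II-treated genotypes, and passed neither test. Mxd3, a partner of Max that represses transcription, had the highest value of the network in Plod1-/- mice at 2.15, and Mxd1, of the same family, the next at 0.68. Mnt, another repressor that pairs with Max, had the lowest at -0.48, and Mxd4 the next at -0.37. Known Myc targets outside the nucleolus formed another list. Of 18 tested, 7 (38.9%) were lower and 4 (22.2%) higher in WT mice under Ang II, and 9 were higher and 0 lower in Plod1-/- mice between the Ang II-treated genotypes. Slc16a1, a lactate transporter, and Ldha, lactate dehydrogenase, had the highest values of that list in Plod1-/- mice, at 1.75 and 1.25, and were higher under Ang II in WT mice too, at 1.98 and 1.35 (limma, adjusted p = 0.00237 and 0.00655). The lowest value in Plod1-/- mice was that of Ccnd2, a cyclin of the early cell cycle, at -0.47.

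Markers of other cell types and states changed along with these genes, and their part in the results was not tested. Between the Ang II-treated genotypes, 8 of 8 macrophage, 5 of 5 tested neutrophil and 5 of 5 tested red blood cell genes were higher in Plod1-/- mice. So were 11 of 12 tested proliferation and 13 of 14 immediate early genes, against 20.8% of all genes. The filter passed 5 of 8 neutrophil and 12 of 15 proliferation genes here, and 2 and 7 in the comparison of WT mice. Some markers thus passed it only through the Ang II-treated Plod1-/- mice where they were high. The marker counts of every comparison are a description. Lower in Plod1-/- mice were 5 of 6 tested brown adipocyte, 2 of 5 tested skeletal muscle and 2 of 8 smooth muscle genes. So were 1 of 8 adipocyte and 1 of 8 fibroblast genes, against 10.4% of all genes. A further 2 of the 8 fibroblast genes were higher. In WT mice under Ang II, 10 of 14 immediate early and 6 of 8 smooth muscle genes were lower, against 21.5% of all genes. Also lower were 2 of 7 tested proliferation, 1 of 8 endothelial and 1 of 8 fibroblast genes. Higher there were 5 of 6 tested brown adipocyte, 6 of 7 tested adipocyte and 4 of 5 tested skeletal muscle genes, against 16.5%. The same held for 4 of 8 endothelial and 2 of 8 macrophage genes. Within Plod1-/- mice, 8 of 8 smooth muscle genes were lower under Ang II, against 20.1% of all genes. Higher there were 8 of 8 macrophage, 5 of 5 tested neutrophil, 5 of 5 tested red blood cell and 11 of 12 tested proliferation genes, against 23.8%. So were 4 of 8 endothelial, 3 of 8 fibroblast, 2 of 8 adipocyte and 1 of 6 tested brown adipocyte genes. Of 14 immediate early genes, 4 were higher and 1 lower. Between the saline-treated genotypes, 2 of 14 immediate early and 2 of 8 fibroblast genes were lower in Plod1-/- mice, against 3.23% of all genes. Also lower were 1 of 8 smooth muscle, 1 of 8 macrophage and 1 of 6 tested brown adipocyte genes, and no marker was higher. All 14 immediate early genes had a negative log2 fold change there, with a median of -1.07. The summed FPKM of the 8 macrophage markers ran from 643 to 3764 in Ang II-treated Plod1-/- mice and from 201 to 1304 in Ang II-treated WT mice. Smooth muscle markers summed to 2307 to 16788 FPKM in the former and 5521 to 17086 in the latter. Proliferation markers summed to 100.5 to 241 FPKM in the former, against 43.9 to 68.2 in the latter. The groups overlapped in the macrophage and smooth muscle sums and not in the proliferation sum. The macrophage overlap lay between replicate 1 of both groups, at 643 FPKM in Plod1-/- and 1304 FPKM in WT mice. All other Ang II-treated Plod1-/- mice were at 1812 to 3764 FPKM and all other Ang II-treated WT mice at 201 to 293 FPKM. For smooth muscle, Ang II-treated Plod1-/- replicate 1, one of those with Xist RNA, was at 16788 FPKM. The rest of its group was at 2307 to 6169 FPKM. Brown adipocyte markers summed to 606 to 4831 FPKM in Ang II-treated WT mice, above the 28.5 to 436 FPKM of saline-treated WT mice, and to 165 to 610 FPKM in Ang II-treated Plod1-/- mice. Of the neutrophil markers, Mpo was below 0.1 FPKM in every saline-treated mouse of both genotypes, and Cxcr2 and Ly6g in every saline-treated Plod1-/- mouse. Saline-treated WT replicate 1, high in Myc, had an immediate early sum of 3046 FPKM, against 676 to 1966 in the rest of its group. Ang II-treated WT replicate 1, also high in Myc, had the highest macrophage and neutrophil sums of its group, 1304 and 195 FPKM. Its immediate early sum, 277 FPKM, lay within the 182 to 322 of the others. Any link to Myc was not tested.

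In WT mice other markers moved with Ang II. Higher under Ang II were 5 of 6 tested brown adipocyte, 6 of 7 tested adipocyte and 4 of 5 tested skeletal muscle markers, against 16.5% of all genes. The same held for 4 of 8 endothelial and 2 of 8 macrophage markers. Lower were 6 of 8 smooth muscle and 10 of 14 immediate early genes, against 21.5%. Also lower were 2 of 7 tested proliferation, 1 of 8 endothelial and 1 of 8 fibroblast markers. The brown adipocyte sum was 606 to 4831 FPKM in Ang II-treated and 28.5 to 436 FPKM in saline-treated WT mice. Myh1 and Myh4, which define fast skeletal muscle, were below 0.1 FPKM in every mouse of the 3 other groups. Ang II-treated WT replicate 4 had the lowest brown adipocyte sum of its group, 606 FPKM, the highest smooth muscle sum, 17086 FPKM, and the highest number of nucleolar genes above the saline-treated WT median, 6 of 38. Without this mouse 22 of the 39 genes were lower in WT mice under Ang II, against 21 with it. With mitochondrial genes left out and the rest rescaled, 19 were lower. The part of fat, muscle and mitochondrial RNA in the decrease was not tested.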

How the data were processed

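RNA from the abdominal aortas of 20 mice was sequenced by the study with a TruSeq RNA kit that does not keep the strand. Per the labels, the reads were placed on mm10, and the submitters' processing notes name HISAT2 2.1.0, Bowtie2 2.2.3 and HTSeq 0.6.0. The authors removed ribosomal RNA reads and made the deposited FPKM values per Ensembl gene with stringtie, cuffquant and cuffnorm at default settings. The depth behind each value is unknown, since no read counts entered the analysis. Estimated from the smallest FPKM steps, depth relative to the first library lay between 0.895 and 1.08. GENCODE M21 (GRCm38) gave symbols and coordinates.

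The analysis used log2(FPKM + 1), which shrinks the changes of low genes. Genes that reached 1 FPKM in 5 or more mice of a comparison were fitted with limma 3.58.1 in R 4.3.3 with a variance trend, on the 10 mice of each pair of groups or on all 20 for the difference of responses. P-values were two-sided and adjusted over all genes fitted, and those below 0.05 were called. The method was tested on simulated data. Tables and figures were made with Python 3.11.15, pandas 2.3.3 and matplotlib 3.10.9.

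The 39 genes and all lists were chosen with earlier results of these data known. Every member is named. Values in every mouse are given for Myc, for the gene with the highest mean FPKM and the one with the largest response in Plod1-/- mice of each role, and for all others lower or higher in WT mice. Of other lists, the 2 genes with the largest response in each direction in Plod1-/- mice may be named. Promoters were shown for the most highly expressed gene of a role that held CACGTG. Alternatives were a pseudocount of 0.1, no filter, the replicate number as a block, no trend, quantile normalization, mitochondrial genes left out, weights per mouse, 1 fit of all 4 groups, the study's threshold of 1 on the log2 fold change, each mouse left out, and removal of the pair of libraries with Xist RNA.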

Additional observations from a re-analysis of the deposited data

Results flagged for a closer look

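Of 156 groups of 5 mice (39 genes in 4 groups), 7 held a mouse whose gap to the nearest other, over the range of the group, was above Dixon's critical value of 0.71, and chance gives about 1 in 20. Myc was at 30.4 FPKM in saline-treated WT replicate 1 and at 10.1 FPKM in Ang II-treated WT replicate 1. Polr1a was at 2.26 FPKM in that same Ang II-treated mouse. Ang II-treated WT replicate 4 held Nop56 at 13.0 FPKM and Nob1 at 11.5 FPKM. Pes1 was at 20.9 FPKM in saline-treated Plod1-/- replicate 3, and Nop2 at 23.4 FPKM in saline-treated WT replicate 2. All 7 values were the highest of their group.

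In 14 genes the response to Ang II differed between the genotypes by the interaction term of limma at an adjusted p below 0.05 and by more than 1 on the log2 scale. The interaction contains the contrast that chose Myc, so the entry of Myc is a description and no test. The values, Plod1-/- minus WT response, were 3.80 for Myc, 1.52 for Ddx21, 1.48 for Nop58, 1.39 for Gnl3, 1.33 for Wdr43, 1.25 for Nop56, 1.19 for Fbl and 1.15 for Heatr1. They were 1.10 for Npm1, 1.05 for Nolc1, 1.02 for Wdr75, 1.02 for Ltv1, 1.01 for Rrp12 and 1.00 for Rrp1b.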

How the results depend on the processing

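No called direction turned under any alternative. The counts below over the 39 genes include Myc, whose calls outside the WT comparison are a description and no test. Values that did not pass changed sign under at least 1 alternative for 3 genes in WT mice (Dkc1, Bop1 and Rrs1), 2 between the Ang II-treated genotypes (Ubtf and Rrp9), 3 between the saline-treated genotypes (Dkc1, Rrp9 and Pes1), 4 within Plod1-/- mice (Polr1c, Ubtf, Rrp9 and Nop14) and 1 for the difference of responses (Rrp9). The number of the 39 genes lower in WT mice under Ang II, 21 in all, was 13 without the filter on low values and 0 with the threshold of 1 on the log2 fold change, and 14 to 22 with 1 mouse left out. Between the Ang II-treated genotypes 29 were higher, 4 with the threshold of 1 and 24 to 32 with 1 mouse left out, and the median of 0.53 became 0.65 with a pseudocount of 0.1 and 0.40 after quantile normalization. Under saline the 2 lower genes became 0 without the filter, with the threshold of 1, with the replicate block and without the libraries with Xist RNA, and 0 to 5 with 1 mouse left out. Within Plod1-/- mice 27 became 1 with the threshold of 1 and 24 to 27 with 1 mouse left out, and the median of 0.46 became 0.35 after quantile normalization. Leaving out both libraries with Xist RNA lost 1 call there. The difference of responses counted 33, 14 with the threshold of 1 and 32 to 35 with 1 mouse left out, and its median of 0.78 became 0.94 with a pseudocount of 0.1 and 0.65 after quantile normalization. Without both libraries with Xist RNA all 39 genes kept their side of the threshold there. The cause of these changes was not tested. Apart from the threshold of 1, the share of all genes called under an alternative is not given. The counts under the alternatives thus do not show whether the 39 genes changed apart from all genes. After quantile normalization the median of the 39 lay 0.40 above that of all genes within Plod1-/- mice, against 0.41 before. For the difference of responses it lay 0.66 above, as before. Mice with the same replicate number did not deviate together throughout. The correlations of their deviations ran from -0.33 to 0.42, and not every pair was above 0.1 in any comparison. Replicates 2 and 3 of the Plod1-/- groups were at 0.42 and 0.37, and what these mice shared was not tested. With the replicate block the counts were 19 in WT mice, 21 between the Ang II-treated genotypes, 23 within Plod1-/- mice and 33 for the difference of responses, and Myc was lower in WT mice at an adjusted p of 0.0106 (limma). Of the values of single genes under the alternatives, 3892 kept their side of the threshold, 267 lost the call and 53 gained it. Depth is unknown, so counting error could not be separated from the spread between mice.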
